A study of Mus musculus with 6 samples.

Results

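Complement is a set of plasma and cell surface proteins that tag microbes and dying cells, and 9 of its genes were followed here in bone marrow cells treated with DEK protein. They were C1qa, C1qb, C1qc and C1s1 of the C1 complex, the central component C3, the alternative pathway genes Cfb and Cfp, and the anaphylatoxin receptor genes C3ar1 and C5ar1. They were taken by symbol from a table of 24421 genes, and all 9 had a row and passed the filter on low counts. The choice of these genes, and of the contrast between C1q and the rest, was made with the DEK against vehicle values known. Values of that contrast for the 9 genes are therefore a description, and the p-values beside them come from fits over all genes and are not independent evidence.

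In the classical pathway, C1q binds its target and activates the serine proteases C1r and C1s bound to it, which leads to cleavage of C3. The alternative pathway amplifies this step with factor B, the product of Cfb, and with properdin, the product of Cfp, which stabilizes the convertase. The small fragments C3a and C5a released along the way signal through the receptors encoded by C3ar1 and C5ar1. In marrow, C1q is made mainly by macrophages, whereas neutrophils and monocytes carry properdin and the C5a receptor.

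The cells came from C57BL/6 mice with the genotype Dek -/-, so vehicle and treated groups both lack a functional copy by label. Marrow was flushed from the femur and passed over 2 columns that retain lineage-marked mature cells. There were 3 vehicle-treated and 3 DEK-treated libraries, numbered 1 to 3 in each group. The age and sex of the animals, whether they were pooled, and the dose and duration of DEK are not given in the labels.

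Counts summed over genes ran from 34875736 to 49128378 per library. The ribosomal RNA gene Rn45s took 4.89% of counts in vehicle replicate 1 and 0.159 to 0.331% in the other 5 libraries, and its part in the results was not tested. Dek itself had 672 to 863 counts with vehicle and 712 to 869 with DEK, a count over the whole gene that cannot show the loss of a part of it, and its exons overlap those of Kdm1b. All 10 progenitor markers were detected, among them Kit at a mean of 241.7 CPM (counts scaled to a common library size) with vehicle and 226.2 with DEK. Markers of mature cells were present too. The 10 neutrophil markers took 6.44% and 5.73% of counts in the libraries numbered 3 of the vehicle and DEK groups, against 0.627 to 0.849% in the other 4. The 18 macrophage markers summed to 2356 to 3055 CPM with vehicle and 2531 to 3255 with DEK. Hbb-bs, Hbb-bt and Hba-a1 were at 0 in all 6 libraries, while the erythroid gene Alas2 was not. The exons of these globin genes overlap those of Hbb-b1, Hbb-b2 and Hba-a2, and the counts were made with no overlap option. Their zeros therefore cannot show whether globin RNA was absent.

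Without pairing, edgeR's quasi-likelihood test called 0 of 13803 genes at an adjusted p under 0.05 (0%), and 0 of the 9 complement genes, each at an adjusted p of 0.99994. At an unadjusted p under 0.05 there were 360 genes (2.61%), among them C1s1, C3, C3ar1, Cfb and Cfp of the 9. DESeq2 called 51 genes and limma-voom 0, and neither called a complement member. With equal replicate numbers treated as pairs, edgeR called 177 genes (1.28%), 120 higher (0.869%) and 57 lower (0.413%) with DEK. Of the 9 complement genes, 1 rose (C1s1) and 3 fell (C1qb, C1qc and C3ar1) in that fit. The groups did not overlap for 4 of the 9, with C1s1, C3 and Cfp higher and C3ar1 lower, against 7.19% of all genes tested. All 9 differed in 1 direction in 3 of 3 pairs, 5 higher (16.3% of all genes) and 4 lower (17.9%). Because the contrast was known when the genes were chosen, nothing is read from these shares. Fold changes and adjusted p below are from the fit within pairs unless marked unpaired.

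**Figure D1:**
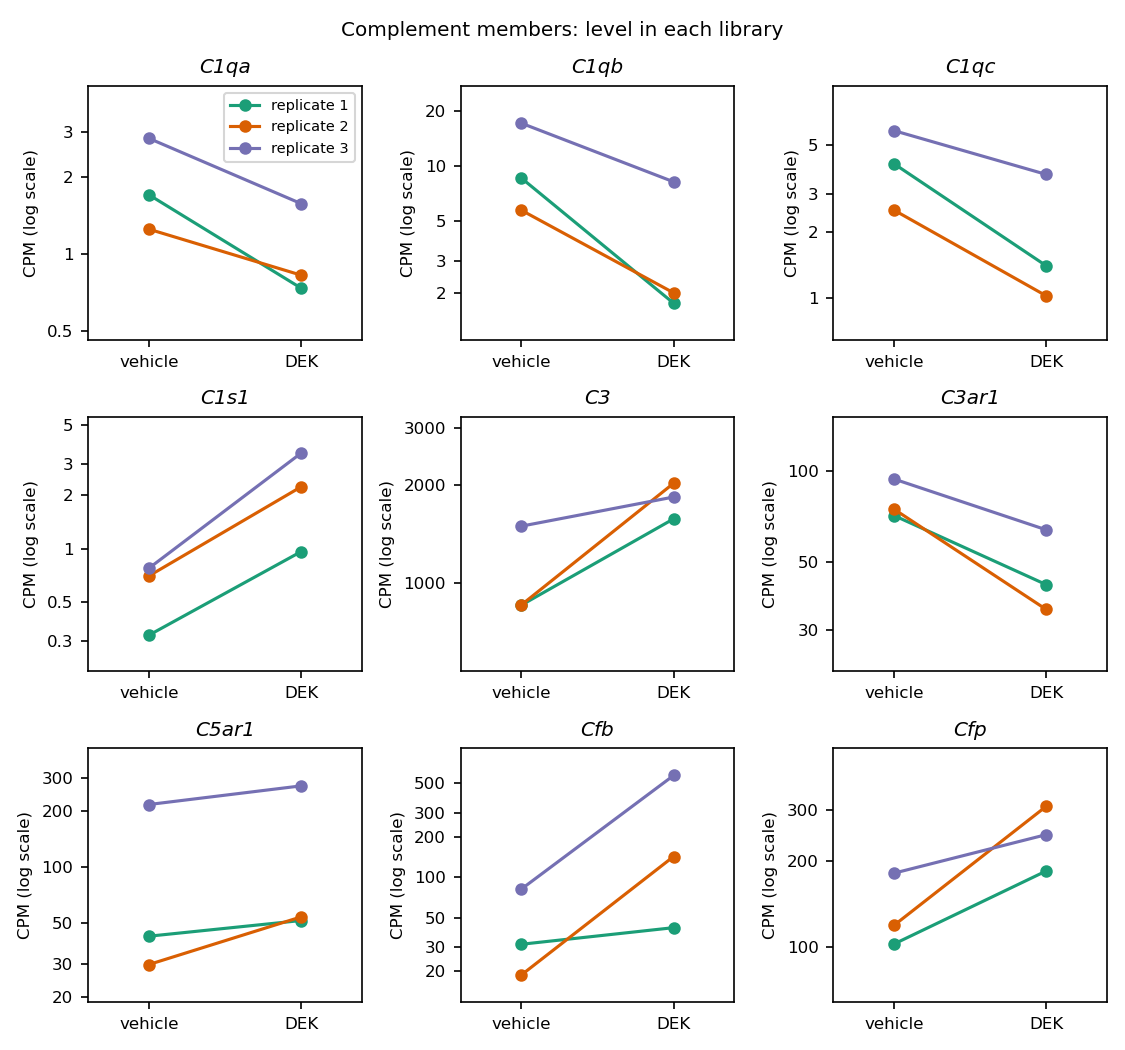
CPM on a log scale of each of the 9 complement genes in the 3 vehicle and 3 DEK libraries, with lines joining equal replicate numbers. All 3 lines fall for C1qa, C1qb, C1qc and C3ar1 and all 3 rise for the other 5 genes, and replicate 3 is the highest line at both ends for C1qa, C1qb, C1qc, C1s1, C3ar1, C5ar1 and Cfb.

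The C1q genes encode the A, B and C chains that assemble together into the recognition molecule. They lie side by side on the minus strand of chromosome 4 (mm10), with C1qb at 136880145 to 136886177, C1qc at 136889802 to 136892914 and C1qa at 136895916 to 136898844. The 3 genes span 18700 bases, with gaps of 3624 and 3001 bases, and no exon of another gene in the table overlaps them. The 250 bases before the RefSeq start of C1qb and C1qc (GRCm38.p6, minus strand, chr4:136886201-136886450 and chr4:136892915-136893164) are shown because these adjacent genes fell together. C1qa has no entry.
C1qb: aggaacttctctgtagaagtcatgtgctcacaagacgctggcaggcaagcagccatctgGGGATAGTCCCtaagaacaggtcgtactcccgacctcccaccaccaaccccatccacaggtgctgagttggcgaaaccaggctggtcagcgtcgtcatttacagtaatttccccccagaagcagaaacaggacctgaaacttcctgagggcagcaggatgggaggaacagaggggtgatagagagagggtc
C1qc: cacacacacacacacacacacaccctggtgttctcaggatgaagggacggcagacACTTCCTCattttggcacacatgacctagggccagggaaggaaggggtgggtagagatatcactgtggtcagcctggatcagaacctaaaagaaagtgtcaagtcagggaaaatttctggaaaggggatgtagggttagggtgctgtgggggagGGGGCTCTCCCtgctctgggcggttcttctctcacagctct
Capitals mark matches to 3 motifs searched on both strands, GAGGAAGT of PU.1 and related ETS factors, the NF-kB pattern of GGG and CC with any 5 bases between, and TGCTGAC of Maf factors. Of 32851 promoter windows of this length, 2.44%, 45.8% and 3.81% held them. C1qb had 2 overlapping NF-kB matches, and C1qc had 1 match to the PU.1 motif and 2 overlapping NF-kB matches. The NF-kB pattern is thus common, and a match is only a run of letters.

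C1qb, the B chain, had 422, 228 and 575 counts in vehicle replicates 1 to 3 and 79, 102 and 353 in DEK replicates 1 to 3. These were 8.56, 5.70 and 17.1 CPM with vehicle and 1.76, 2.01 and 8.17 CPM with DEK. The DEK library numbered 3 lay within the vehicle range, and the other DEK libraries lay below it. Within pairs 1, 2 and 3 the treated level was 0.210, 0.358 and 0.479 times that of vehicle. The log2 fold change was -1.58 ± 0.22 (SE, adjusted p = 0.0107, edgeR), a 2.99-fold fall. Unpaired it was -1.39 ± 0.72, and -2.47 without DEK replicate 3 or -0.84 without vehicle replicate 3.

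C1qc, the C chain, stood at 4.12, 2.53 and 5.83 CPM with vehicle and 1.41, 1.02 and 3.68 CPM with DEK. Here too DEK replicate 3 was inside the vehicle range while DEK replicates 1 and 2 were under it. The log2 fold change was -1.15 ± 0.24 (SE, adjusted p = 0.0339, edgeR). C1qa, the A chain, rested on 33 to 95 counts per library. Its levels were 1.70, 1.25 and 2.83 CPM with vehicle and 0.737, 0.828 and 1.57 CPM with DEK, lower in 3 of 3 pairs with overlapping groups. Its log2 fold change of -0.88 ± 0.29 did not pass (SE, adjusted p = 0.23, edgeR).

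Per length, the 3 chains were unequal. C1qb took 45.2 to 66.4% of their summed RPKM (CPM per kilobase of exon), C1qc 22.8 to 36.3% and C1qa 10.8 to 21.1%, and the order C1qb, C1qc, C1qa held in 6 of 6 libraries. In the vehicle libraries C1qb took 59.5, 60.2 and 66.4%, and in the DEK libraries 45.2, 52.1 and 60.9%. Every C1q gene was also higher in the libraries numbered 3. C1qb was 2.44-fold above the mean of replicates 1 and 2 with vehicle and 4.26-fold above it with DEK, taken on the log2 scale.

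The serine protease gene C1s1 (chromosome 6, 124530344 to 124542359, minus strand) went the other way from C1q in the same complex. It had 16, 28 and 26 counts with vehicle and 43, 113 and 149 with DEK, or 0.325, 0.700 and 0.774 CPM against 0.960, 2.23 and 3.45 CPM. All 3 DEK libraries were above all 3 vehicle libraries, although every value was low. The log2 fold change was 1.81 ± 0.31 (SE, adjusted p = 0.0152, edgeR), a 3.51-fold rise, and unpaired it was 1.89 ± 0.58. C1s1 has a close paralog, C1s2, which had 2 to 13 counts per library and did not pass the filter, so reads shared by the 2 genes leave the C1s1 value uncertain.

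C3, the protein whose cleavage all pathways share, was the most abundant member (chromosome 17, 57203967 to 57228136, minus strand). Its levels were 854.1, 855.5 and 1495 CPM with vehicle and 1574, 2025 and 1837 CPM with DEK. The groups did not overlap, and vehicle replicate 3 was the vehicle library nearest to the DEK range. Within pairs 1, 2 and 3 the level with DEK was 1.84, 2.37 and 1.23 times that with vehicle. The log2 fold change of 0.81 ± 0.17 did not pass (SE, adjusted p = 0.0986, edgeR).

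Cfp, the properdin gene (chromosome X, 20925535 to 20931524, minus strand), stood at 102.2, 118.7 and 180.7 CPM with vehicle and 183.9, 309.4 and 246.4 CPM with DEK. The groups did not overlap, and DEK replicate 1 was only just above vehicle replicate 3. Its log2 fold change was 0.89 ± 0.18 (SE, adjusted p = 0.0986, edgeR), with 1.80, 2.60 and 1.36 times the vehicle level in pairs 1, 2 and 3. C3 and Cfp thus had alike profiles, each with its largest difference in pair 2 and its smallest in pair 3. Their 250 promoter bases are shown for that reason (GRCm38.p6, minus strand, chr17:57228137-57228386 and chrX:20931556-20931805).
C3: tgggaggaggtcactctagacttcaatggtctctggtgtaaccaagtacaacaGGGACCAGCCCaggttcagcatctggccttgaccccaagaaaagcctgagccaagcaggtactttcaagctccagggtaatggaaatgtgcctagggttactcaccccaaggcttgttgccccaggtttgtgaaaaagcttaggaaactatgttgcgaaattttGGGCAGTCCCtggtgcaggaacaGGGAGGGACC
Cfp: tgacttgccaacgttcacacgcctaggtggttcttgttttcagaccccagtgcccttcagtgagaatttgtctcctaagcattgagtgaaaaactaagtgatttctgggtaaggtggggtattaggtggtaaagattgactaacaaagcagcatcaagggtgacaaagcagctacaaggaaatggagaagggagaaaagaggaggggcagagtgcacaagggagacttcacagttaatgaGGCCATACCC
Capitals again mark motif matches. C3 had 4 matches to the NF-kB pattern, 2 of them overlapping, and Cfp had 1. Among the 8 promoter windows of 7 members that had an entry, none held the Maf motif, and the PU.1 motif was found only in that of C1qc.

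Cfb (chromosome 17, 34856374 to 34862514, minus strand), which encodes the protease of the alternative pathway convertase, had the widest spread. Its levels were 31.7, 18.8 and 81.5 CPM with vehicle and 42.1, 142.2 and 568.6 CPM with DEK. DEK replicate 1 lay below vehicle replicate 3, so the groups overlapped. The level with DEK was 1.33 times that with vehicle in pair 1, against 7.56 and 6.97 times in pairs 2 and 3. The log2 fold change of 2.09 ± 0.84 did not pass (SE, adjusted p = 0.567, edgeR). Without pair 1 it was 2.86 (adjusted p = 1.49e-06, edgeR), against 1.63 without pair 2 and 1.66 without pair 3 (adjusted p = 0.997 and 0.815, edgeR). Fits that lack a pair lean on spread estimated across all genes, so their p-values are not strong evidence. Unpaired, the log2 fold change of Cfb was 2.51 ± 1.03 with all libraries, 1.06 without DEK replicate 3 and 3.31 without vehicle replicate 3.

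Of the receptors for the 2 anaphylatoxins, C3ar1 passed the test within pairs and C5ar1 did not. C3ar1, the C3a receptor (chromosome 6, 122847140 to 122856157, minus strand), stood at 71.2, 74.7 and 93.9 CPM with vehicle and 42.2, 34.95 and 63.9 CPM with DEK. All DEK libraries were below all vehicle libraries. The log2 fold change was -0.80 ± 0.11 (SE, adjusted p = 0.00739, edgeR), a 1.74-fold fall, the smallest adjusted p of the 9 genes. C3ar1 thus had the sign of the C1q genes.

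C5ar1, the C5a receptor (chromosome 7, 16246743 to 16259540, minus strand), stood at 42.3, 29.8 and 216.9 CPM with vehicle and 51.4, 53.8 and 273.2 CPM with DEK. The libraries numbered 3 were far above the rest, as they were in neutrophil markers, and the part of these cells in the C5ar1 values was not tested. Its log2 fold change of 0.49 ± 0.12 did not pass (SE, adjusted p = 0.0941, edgeR), although the level was higher in 3 of 3 pairs. Unpaired, its log2 fold change of 0.39 ± 0.99 turned to -0.04 without vehicle replicate 2 and to -0.88 without DEK replicate 3. Fits within pairs, with all pairs or with 1 left out, ran from 0.32 to 0.59. The sign of C5ar1 thus held within pairs but not unpaired, and no direction is given for it beyond these pairs. The RPKM of C5ar1 was 0.995, 0.667 and 3.86 times that of C3ar1 in vehicle replicates 1 to 3 and 2.04, 2.57 and 7.15 times in DEK replicates 1 to 3. Within pairs this ratio was 2.05, 3.86 and 1.85 times higher with DEK.

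**Figure D2:**
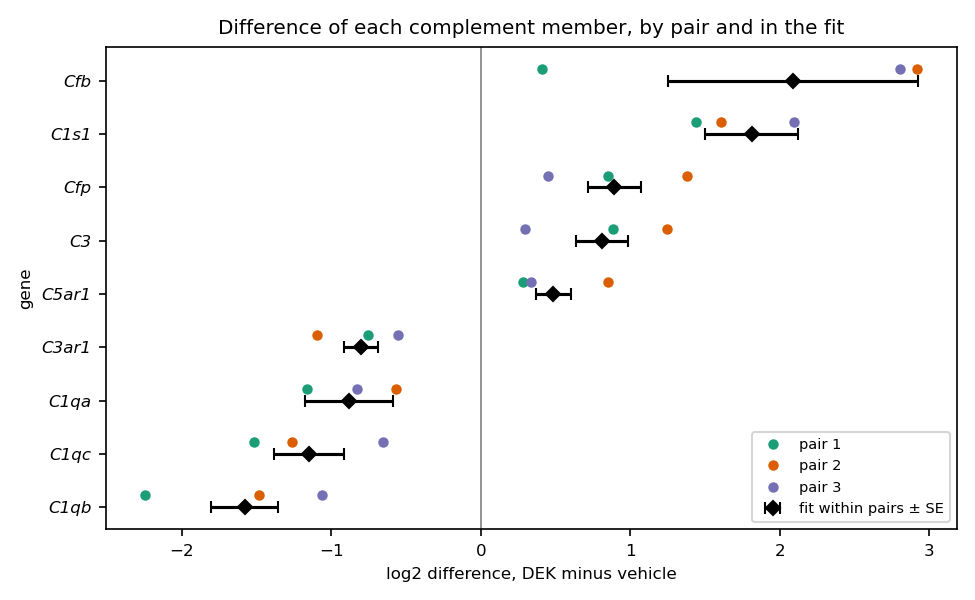
Log2 difference of DEK minus vehicle for each of the 9 complement genes, as coloured points for pairs 1, 2 and 3 and as a black diamond with its SE for the fit within pairs. C1qa, C1qb, C1qc and C3ar1 lie below 0 in every pair and the other 5 above 0, with pair 1 of Cfb at 0.41 far from the 2.92 and 2.80 of pairs 2 and 3.

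The C1q genes were set against the other 6 members as the mean log2 CPM of the former minus that of the latter. This value was -3.26, -3.84 and -3.68 in vehicle replicates 1 to 3 and -5.43, -6.10 and -5.43 in DEK replicates 1 to 3. The groups did not overlap, and the libraries numbered 3 did not stand apart. The difference of DEK minus vehicle was -2.06, and within pairs 1, 2 and 3 it was -2.16, -2.26 and -1.75. The C1q mean contributed -1.20 to it and the mean of the others 0.86. With C1s1, a gene of low counts, left out of the others the difference was -1.89. With C3ar1 left out instead it was -2.39, a choice made after the direction of C3ar1 was seen. As the contrast was chosen from these values, it was not tested.

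**Figure D3:**
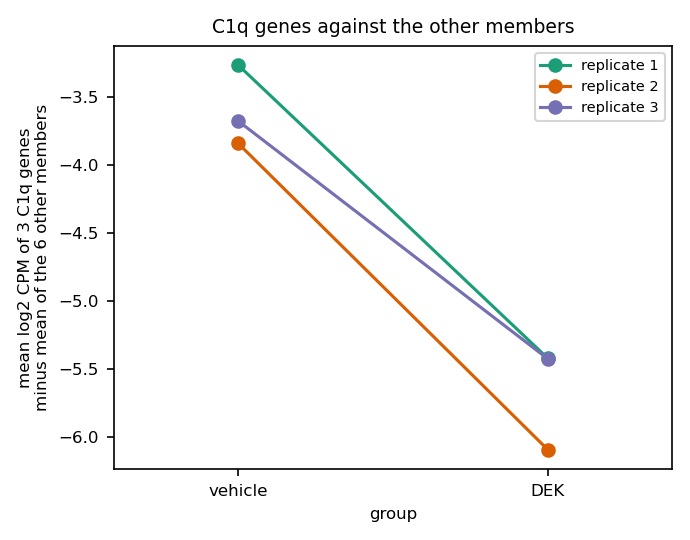
Mean log2 CPM of C1qa, C1qb and C1qc minus the mean of the 6 other complement genes in each library, with lines joining equal replicate numbers. Vehicle libraries lie between -3.84 and -3.26 and DEK libraries between -6.10 and -5.43.

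In level per length, the mean RPKM over 6 libraries was 280.2 for C3, 124.8 for Cfp, 53.7 for Cfb, 43.3 for C5ar1, 14.8 for C3ar1, 6.799 for C1qb, 2.94 for C1qc, 1.37 for C1qa and 0.471 for C1s1. C3 exceeded Cfp, and C3ar1 exceeded C1qb, in 6 of 6 libraries. Cfb and C5ar1 could not be ordered, since Cfb was higher in only 2 of 6 libraries, and C5ar1 exceeded C3ar1 in 4 of 6. The ranges of all neighbours in this order overlapped over the 6 libraries. C3 and the alternative pathway genes thus had higher mean RPKM than the C1 complex genes. The RPKM of C3 was 18.05 to 31.0 times that of C1qb with vehicle and 46.5 to 208.1 times with DEK.

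Of 58 other complement genes listed, 30 passed the filter, and 2 rose and 1 fell within pairs, against 0.869% and 0.413% of all genes tested. Unpaired, 0 passed (edgeR, 3 at an unadjusted p under 0.05, against 2.61% of all genes tested). Their median log2 fold change was -0.05, against -0.00278 over all genes tested. Both that rose are proteases of the C1r family and lie beside C1s1 on chromosome 6, on the plus strand. C1ra, the C1r protease that cleaves C1s (124512621 to 124523440), stood at 6.29, 6.53 and 11.01 CPM with vehicle and 9.29, 12.6 and 21.3 CPM with DEK (log2 fold change 0.82 ± 0.14, SE, adjusted p = 0.0157, edgeR). Its groups overlapped through vehicle replicate 3. C1rl, a C1r-like protease gene (124493113 to 124510643), stood at 34.3, 39.9 and 64.3 CPM with vehicle and 64.6, 99.3 and 98.9 CPM with DEK. Its groups did not overlap, though vehicle replicate 3 and DEK replicate 1 were nearly equal, and its log2 fold change was 0.95 ± 0.13 (SE, adjusted p = 0.00844, edgeR).

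Cd93 was the gene that fell (chromosome 2, 148436651 to 148443535, minus strand). It encodes a membrane glycoprotein of progenitors, endothelium and myeloid cells that was once described as a C1q receptor. It stood at 908.6, 902.7 and 589.7 CPM with vehicle and 494.6, 452.8 and 410.6 CPM with DEK, with no overlap (log2 fold change -0.80 ± 0.11, SE, adjusted p = 0.00599, edgeR). Fcna, a ficolin of the lectin pathway named after its values were seen, was the other gene of the list that was lower with no overlap, at 1.67 to 2.50 CPM with vehicle and 0.849 to 1.22 with DEK, but did not pass (adjusted p = 0.14, edgeR). In all, 1 of the 30 had non-overlapping groups higher and 2 lower with DEK, against 3.78% and 3.41% of all genes tested.

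Most of the remaining pathway did not pass or had few reads. Of the 9 regulators tested, 0 passed within pairs (edgeR, 0 at an unadjusted p under 0.05), including Cr1l, which encodes the rodent inhibitor Crry, at a log2 fold change of -0.04 ± 0.09, and C1qbp at 0.19 ± 0.10, uncertain because its exons overlap Rpain. The integrin genes Itgam and Itgb2, whose products together form complement receptor 3, had log2 fold changes of 0.03 ± 0.10 and 0.12 ± 0.10. Calr, a calreticulin gene whose product can bind C1q, had 0.08 ± 0.10, and the ficolin gene Fcnb -0.23 ± 0.17 (SE each, adjusted p from 0.476 to 0.931 for these 6, edgeR). In 10 genes of the list there was no read in any library, among them the mannose-binding lectins Mbl1 and Mbl2 and the terminal components C6, C8b and C9. Of the 8 terminal and factor D genes, 2 passed the filter and 0 were called within pairs (edgeR, 0 at an unadjusted p under 0.05). Over all 13803 genes tested, 1581 had an unadjusted p under 0.05 within pairs (edgeR).

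**Figure D4:**
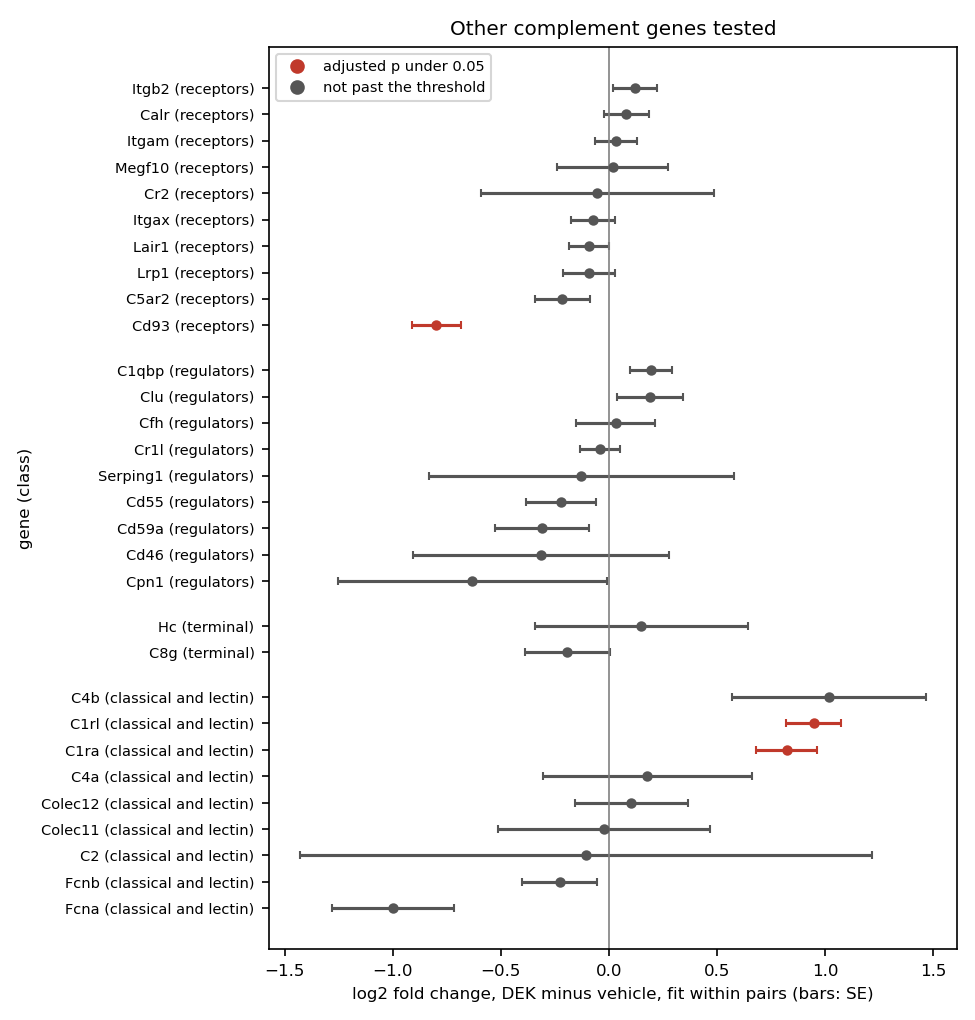
Log2 fold change of DEK minus vehicle within pairs, with its SE, for the 30 other complement genes tested, grouped as classical and lectin pathway, terminal, regulators and receptors. C1ra, C1rl and Cd93, in red, passed the threshold, at 0.82, 0.95 and -0.80.

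Marker lists of several cell types were read beside these values. Of 18 macrophage markers, 0 rose and 3 fell within pairs, against 0.869% and 0.413% of all genes tested, with a median log2 fold change of -0.18. Among those that fell were Mertk, a receptor for dying cells, at -2.10 ± 0.33, and Trem2, a lipid receptor, at -1.25 ± 0.16 (SE each, adjusted p = 0.0133 and 0.013, edgeR). The general macrophage genes Adgre1 and Cd68 had -0.08 and -0.04 and did not pass. Of the 18, 12 had log2 fold changes below 0 and 6 above 0, against 6981 and 6822 of all genes tested. The largest of the 6 was 2.17 and did not pass (adjusted p = 0.281, edgeR). No marker of the list was at 0 in all libraries. Csf1r counts in this list and in that of monocytes. It was the largest term of the macrophage sum, at a mean of 1002 CPM with vehicle and 1320 with DEK. Mertk, at 3.33 and 0.918 CPM, and Trem2, at 52.4 and 21.1 CPM, weigh little in that sum, so it does not track every marker. The summed markers overlapped between groups. The summed C1q genes per 100 CPM of those markers were 0.471, 0.315 and 1.09 CPM with vehicle and 0.135, 0.119 and 0.530 CPM with DEK. This ratio overlapped too, through DEK replicate 3. Of 10 monocyte markers, 4 rose (Ly6c2, Cx3cr1, Ms4a4c and Nr4a1) and 0 fell, against the same shares of all genes, with a median of 0.51. Of these 10, 8 had log2 fold changes above 0 and 2 below 0, Ccr2 at -0.12 and F13a1 at -0.01. Their summed levels were 7363 to 8336 CPM with vehicle and 8180 to 10366 CPM with DEK, with overlap. All 7 eosinophil markers had log2 fold changes below 0 within pairs, against 6981 of all 13803 genes tested, with a median of -0.54. Epx, the eosinophil peroxidase gene, and Prg3 fell (-0.66 ± 0.11 and -0.55 ± 0.11, SE, adjusted p = 0.0107 and 0.0382, edgeR), against 0.413% of all genes. The summed level of the 7 was 4522 to 13991 CPM with vehicle and 3223 to 10903 CPM with DEK, with overlap. The part of these cell types in the complement values was not tested. In a bulk sample, fewer cells of a type and less RNA per cell cannot be told apart.

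**Figure D5:**
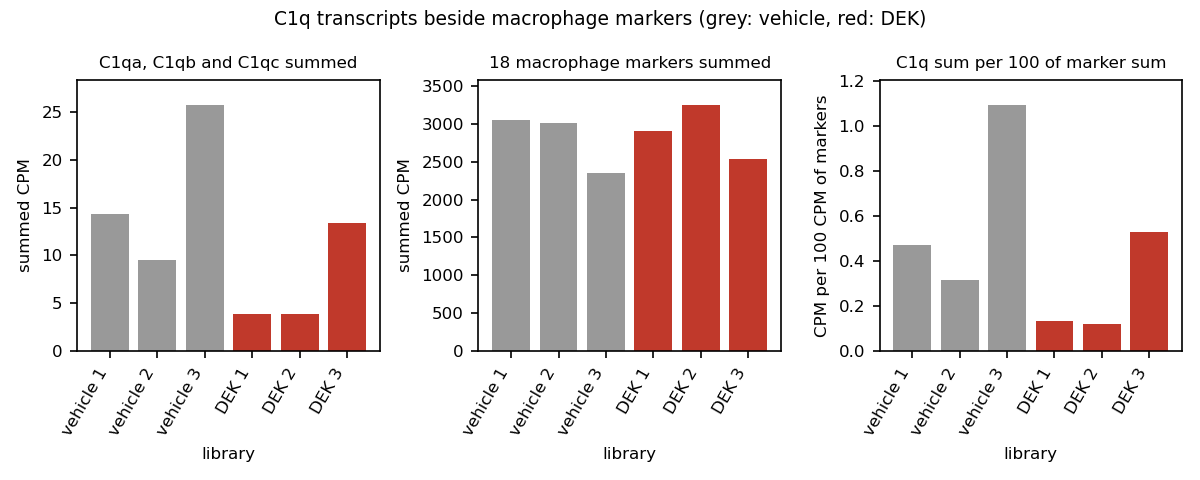
Bars give, for each library, the summed CPM of the 3 C1q genes, the summed CPM of 18 macrophage markers, and the former per 100 CPM of the latter (grey vehicle, red DEK). The marker sum, in which Csf1r is the largest term, lies between 2356 and 3255 CPM in all 6 libraries. The C1q sum is 9.48 to 25.8 CPM with vehicle and 3.86 to 13.4 CPM with DEK. The groups overlap in all 3 measures.

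Likeness across the 6 libraries was measured as the root mean square difference of log2 CPM after centring each gene on its own mean, against 12108 other genes whose mean reached 1 CPM. Nearest to C1qb came its neighbour C1qc (0.37), then Ctsk (0.41), which encodes the protease cathepsin K, Mak (0.44), Mertk (0.47) and Fbxo24 (0.49). C1qa ranked 10 and C3ar1 64. Nearest to C3 came Ikbke (0.09), an inducible kinase of the innate response, then Cntnap1 (0.12), Cfp (0.14), the acute phase gene Hp (0.15) and C1rl (0.15). So the member nearest to C1qb was another C1q gene, and the member nearest to C3 was Cfp. The 6 points include the replicate differences as well as the treatment, so likeness is no measure of the response to DEK alone.

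The calls depended on which pairs were used. Over all genes tested, 181 of 13916 passed without pair 1, 0 of 14013 without pair 2 and 641 of 13809 without pair 3 (edgeR within pairs). The member and marker counts that follow are to be read beside these totals. Without pair 2, 0 of the 9 genes passed (edgeR within pairs). At an unadjusted p under 0.05 there were 8 of the 9, against 675 of all 14013 genes tested in that fit. Nothing is read from that count, since the genes were chosen with the contrast known. The adjusted p rose to 0.504 for C1qb, 0.721 for C1qc, 0.486 for C1s1 and 0.437 for C3ar1 (edgeR). Their log2 fold changes were -1.61, -1.07, 1.90 and -0.64. Without pair 3, 7 passed, with C3, C5ar1 and Cfp added to the 4. Without pair 1, C1qc lost its call (adjusted p = 0.171, edgeR) and Cfb gained one. C1ra, C1rl and Cd93 also lost their calls without pair 2, at adjusted p of 0.504, 0.359 and 0.483, and C1rl without pair 1 at 0.0594 (edgeR). With pair 1 left out, 1 macrophage marker was called higher and 0 lower, with pair 2 left out 0 either way, and with pair 3 left out 1 was higher and 6 were lower. Mertk and Trem2 did not pass without pair 1 (adjusted p = 0.0798 and 0.0902, edgeR) or without pair 2 (0.452 and 0.366). Monocyte markers called higher numbered 3, 0 and 6 without pairs 1, 2 and 3, and eosinophil markers called lower 3, 0 and 5.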

How the data were processed

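RNA of 6 libraries was measured by sequencing polyadenylated RNA with a stranded kit, per the labels' protocols. The deposited file gives read counts per gene. Per the file headers, the authors made these counts with featureCounts 1.6.1 over exons by gene on mm10, from 1 alignment per library in lane 6, with no strand, pairing or overlap option. The submitters' processing notes name HTSeq, which differs from that header, and also Trim Galore, STAR and edgeR. As no strand option is recorded, reads of antisense genes cannot be told apart, and overlaps were checked in the table.

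Software was edgeR 4.0.16 in R 4.3.3, with DESeq2 1.42.0 and limma 3.58.1 as alternatives. Of 24421 genes, 18049 had a read and 13803 passed filterByExpr. Scaling was by TMM. The main test was edgeR's two-sided quasi-likelihood test, robust and without a block, called at 0.05 after Benjamini-Hochberg adjustment across the 13803 genes. SEs come from the F statistic. CPM and RPKM use TMM-scaled totals and the table's gene length, and log2 CPM a prior count of 2. Pair differences are on that log2 scale.

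Replicate numbers were taken as pairs because deviations from the group means correlated by 0.55, 0.56 and 0.80 for equal numbers 1, 2 and 3, above the minimum of 0.1. The labels do not say what a number marks, nor whether libraries are from separate animals, so p-values measure the spread between these libraries, which may be technical. Unequal numbers 1 and 2 also correlated, by 0.52 and 0.41, and the libraries numbered 3 correlated with unequal numbers by -0.69 to -0.59. The pairing therefore rests largely on the libraries numbered 3 standing apart in both groups, and does not tell numbers 1 and 2 clearly from each other. The common biological coefficient of variation was 33.1% unpaired and 13.1% within pairs. On simulated data the paired fit made more false calls than its threshold allows where spread varied by gene, and not where spread followed the trend with expression.

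Members and lists were chosen with earlier results of these data known. Named genes were all members, the called genes among other complement genes plus the 6 others with the highest RPKM, and the 5 genes nearest to C1qb and to C3. Promoter sequences are RefSeq's for GRCm38.p6, the assembly that mm10 names, and 7 of 9 members had one. Of the marker lists, stroma and endothelium, lymphoid, erythroid and progenitor had 0 members called within pairs. Neutrophil had 1 of 10 higher, dendritic 1 of 7 higher and eosinophil 2 of 7 lower, against 0.869% higher and 0.413% lower of all genes tested. One macrophage marker is counted in its list but not reported here by name.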

Additional observations from a re-analysis of the deposited data

How the results depend on the processing

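Without a block, all genes called numbered 0 with TMM, with RLE size factors, with total counts only, with limma-voom and without a filter, and 51 with DESeq2. With the replicate block there were 177, and 4 of the 9 members passed. Leaving out 1 library at a time without the block gave 0 to 1 genes and 0 members. With the replicate block, leaving out pair 1, 2 or 3 gave 181, 0 and 641 genes and 4, 0 and 7 members. With both libraries numbered 3 left out and no block, an alternative added after the data were seen, 168 genes and 3 members passed, namely C1qb, C3 and C3ar1 (adjusted p = 0.00484, 0.00389 and 0.00695, edgeR). The cause of these shifts was not tested. Over all 17 settings, the adjusted p ran from 7.24e-13 to 0.99999 for C1qb, from 0.00018 to 0.99999 for C1qc, from 0.00874 to 0.99999 for C1s1 and from 1.5e-10 to 0.99999 for C3ar1. The smallest adjusted p of each of these 4 came from the fit within pairs 1 and 2 alone. With so few libraries that fit leans on spread estimated across all genes, so these values are not strong evidence. The sign of the fold change was the same in all 17 for 8 members. Their log2 fold changes ran from -1.30 to -0.50 for C1qa, from -2.47 to -0.84 for C1qb, from -1.77 to -0.71 for C1qc and from 1.06 to 3.31 for Cfb. The exception, C5ar1, had a log2 fold change of 0.39 unpaired, -0.04 without vehicle replicate 2 and -0.88 without DEK replicate 3, and reached 1.81 without vehicle replicate 3, none of these past the threshold. The difference between C1q and the other members ran from -2.39 to -1.83 over its alternatives, and from -2.18 to -1.83 when 1 library was left out. Low counts limit C1qa and C1s1.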
